A study of Homo sapiens with 56 samples.

Results

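The genes described here are interferon-stimulated genes, the transcripts that cells raise when interferon receptors are engaged or when the same promoters are kept active from within. A list of 43 symbols was taken, and a gene with several probe sets annotated to its symbol alone was read from the one that was brightest on average. This gave 41 genes of the 11963 measured in all. STAT2 and IFI30 were not analysed here because no probe set carried either symbol alone.

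The arrays came from PEO1 and PEO4, established cell lines of high-grade serous ovarian cancer. Cells of both lines were hormone-deprived for 3 days in medium free of phenol red with charcoal-stripped serum, so every group carries that deprivation. They were then collected at 0 h, or 3 h after adding the vehicle ethanol, estradiol (E2) at 1 nM, 1 µM ICI (fulvestrant, an estrogen receptor antagonist that destabilises the receptor), 1 µM 4-hydroxytamoxifen (4OHT, a selective estrogen receptor modulator), ICI with E2, or 4OHT with E2. Each line contributed 7 groups of 4 arrays, 28 arrays per line and 56 in all, and the PEO4 arrays titled Tam were read as 4OHT because the series text defines the abbreviation so. The labels do not say that the 4 arrays of a group came from separate cultures, so p-values measure the spread between arrays, which may be technical, and the number of arrays limits the precision. Each line is 1 cell line and 1 set of arrays, so a difference between the lines cannot be told apart from a difference between the array sets.

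Type I interferons act through the IFNAR receptor and the kinases JAK1 and TYK2 on a complex that holds STAT2 and IRF9 and binds the interferon-stimulated response element (ISRE) of its target promoters. Interferon gamma acts mainly on promoters with the gamma-activated site (GAS). The induced genes encode antiviral effectors, double-stranded RNA sensors, the ISG15 conjugation system and antigen processing proteins, and in carcinoma lines many of them can stay at a raised level without added interferon.

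Promoter sequences show what the ISRE letters look like at some genes that differed between the lines and at some that differed little. They are examples, chosen after the values were seen. In RefSeq promoters (GRCh38.p14, 250 bases before to 50 after the start of the transcript), GAAANNGAAA was searched on both strands as the ISRE letters, which read TTTCNNTTTC on the other strand, and overlapping matches were counted. It occurred in 3.57% of 35116 promoters and in 27 of the 45 promoters listed for these genes. By gene, 23 of the 33 with a promoter entry held it, against 4.38% of all 27305 genes. IFITM2, MX2, OAS2, OASL, GBP2, IRF7, TRIM22 and USP18 had no promoter entry. The windows that follow are 60 bases long, lie before the start, run in the direction of transcription, and carry the matching letters in capitals. Genes with a called difference between the lines come first.
IFITM1, chr11:313974-314033, plus strand: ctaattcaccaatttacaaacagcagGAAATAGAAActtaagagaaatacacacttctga
IFITM3, chr11:320870-320929, minus strand: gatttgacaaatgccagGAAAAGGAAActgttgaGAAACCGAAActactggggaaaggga
ISG15, chr1:1013361-1013420, plus strand: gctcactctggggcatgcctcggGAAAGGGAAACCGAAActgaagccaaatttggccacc
IFI6, chr1:27672251-27672310, minus strand: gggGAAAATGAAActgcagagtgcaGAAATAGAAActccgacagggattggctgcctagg
IFIT1, chr10:89392488-89392547, plus strand: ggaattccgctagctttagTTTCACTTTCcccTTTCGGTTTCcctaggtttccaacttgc
Genes of the same families or with the same letters, but without a called difference, follow.
OAS3, chr12:112938414-112938473, plus strand: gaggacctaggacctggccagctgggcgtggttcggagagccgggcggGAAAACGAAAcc
B2M, chr15:44711350-44711409, plus strand: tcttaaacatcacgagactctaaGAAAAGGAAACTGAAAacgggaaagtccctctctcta
IFIT5, chr10:89414508-89414567, plus strand: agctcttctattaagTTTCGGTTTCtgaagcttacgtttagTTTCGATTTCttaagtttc
In IFITM3 the 2 matches stand apart within the window, while in ISG15 and B2M the 2 matches overlap in a single run. In IFIT1 and IFIT5 the letters lie on the other strand. IFI6 and IFIT5 each held 3 matches in the whole promoter, and IFITM1 held 2.

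Levels of the lines were compared under vehicle after all 56 arrays had been quantile-normalized together, because array medians of the deposited log2 values ran from 7.409 to 7.49 in PEO1, against 7.851 to 7.916 in PEO4. A gene was called when limma's Benjamini-Hochberg adjusted p over all genes was under 0.05 and the difference was at least 1 on the log2 scale. On this rule 18 of the 41 genes were higher in PEO4 and 0 were lower, where 5.84% of all genes tested were called higher and 4.61% lower. Without the fold minimum 75.8% of all genes passed, as did 37 of these 41. The median difference was 0.75 for the 41 genes and -0.02 for all genes. Averaged over the 41 genes, single arrays ran from 8.13 to 8.23 in PEO1, against 9.12 to 9.33 in PEO4, whatever the treatment. Counted over all treatments, 25 genes had every one of the 28 PEO4 arrays above every one of the 28 PEO1 arrays, 1 had all below, and 15 overlapped, while 18.8% of all genes lay above and 18.4% below. On the deposited values, without the joint normalization, the median of all genes shifted to 0.45, 25 of the 41 genes were called higher and 0 lower, and the split over all genes moved from 699 of 1250 calls higher to 1874 of 2171.

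**Figure D1:**
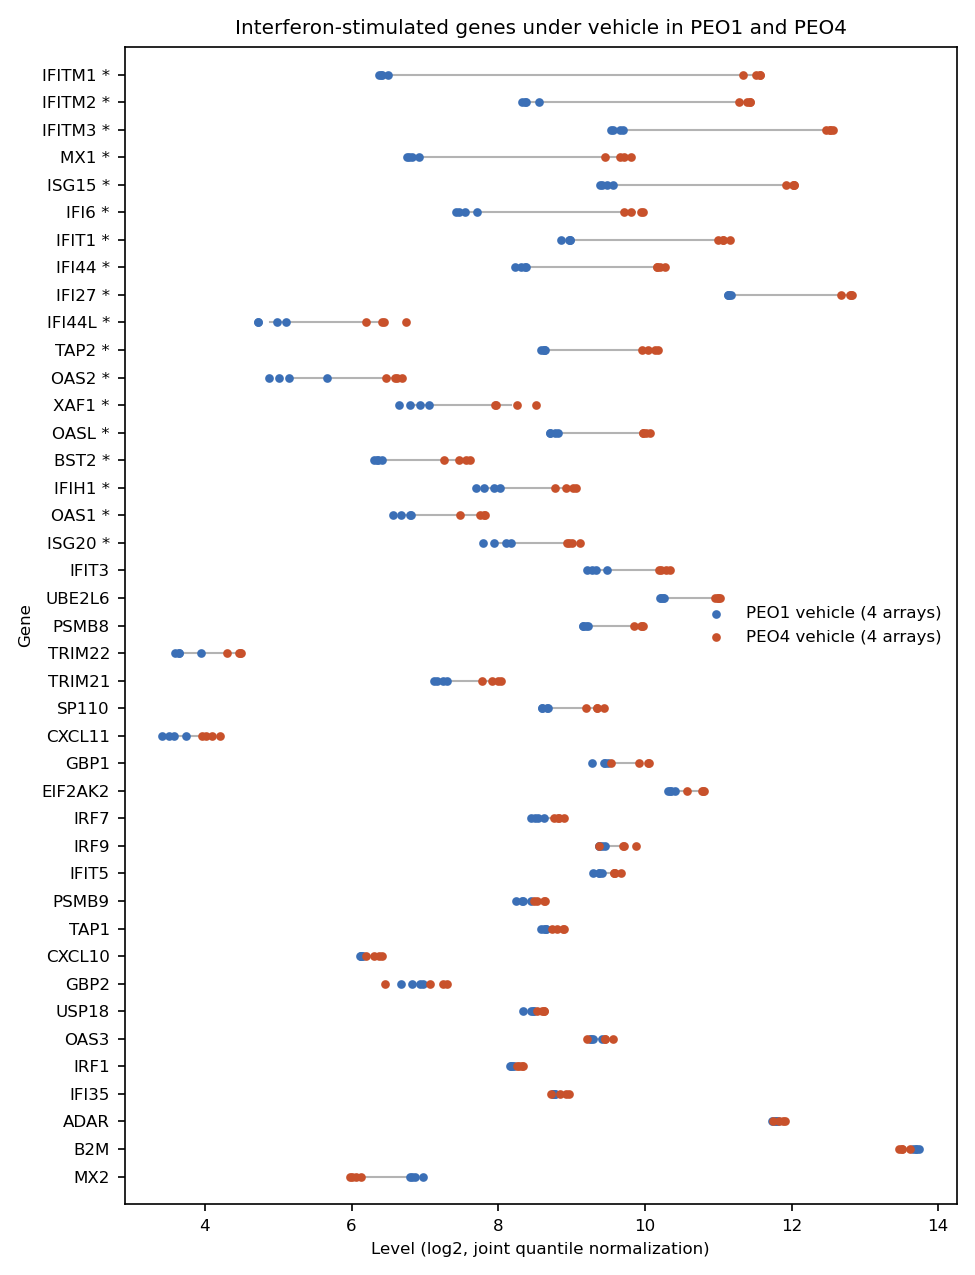
Level of each of the 41 genes on the 4 vehicle arrays of PEO1 (blue) and of PEO4 (red), in log2 units after joint quantile normalization, with a grey line joining the line means and an asterisk on the 18 called genes. Genes are ordered by the difference, from IFITM1 at 5.07 to MX2 at -0.82.

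**Figure D2:**
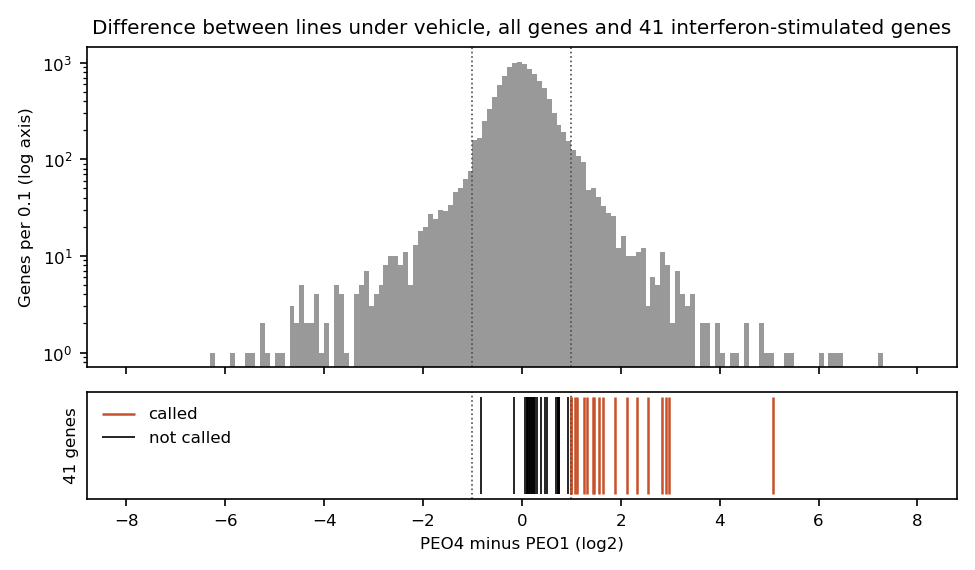
Upper panel: number of genes per 0.1 log2 step of the PEO4 minus PEO1 difference under vehicle for all 11963 genes, on a log axis. Lower panel: the 41 interferon-stimulated genes, red where called, with dotted lines at -1 and 1; their median was 0.75 against -0.02 for all genes.

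The 3 measured transcription factors of the list differed little. IRF9, a DNA-binding subunit of the complex that reads the ISRE, stood at 9.37, 9.45, 9.38 and 9.41 on the PEO1 vehicle arrays and at 9.88, 9.38, 9.72 and 9.70 on those of PEO4. The groups overlapped through the second PEO4 array, and the difference was 0.27 ± 0.07 (SE, adjusted p = 0.000676). Over the 7 groups its means ran from 9.24 to 9.71 in PEO1, against 9.65 to 10.03 in PEO4, and the difference between the lines ran from 0.07 to 0.51. A probe set annotated to both RNF31 and IRF9 differed by 0.45 ± 0.06. IRF7, which amplifies interferon transcription, differed by 0.30 ± 0.06. IRF1, an early interferon gamma target, differed by 0.11 ± 0.05 (adjusted p = 0.0373), and its group means spanned 8.15 to 8.23 in PEO1 and 8.14 to 8.30 in PEO4. None of the 3 factors was called.

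The membrane restriction factors differed most, with 4 of 4 called and a median difference of 2.94. IFITM1, a membrane protein that blocks fusion of viruses with the cell, read 6.5, 6.42, 6.38 and 6.40 in PEO1 and 11.57, 11.34, 11.57 and 11.52 in PEO4. The groups were far apart, by 5.07 ± 0.09 (33.7-fold, adjusted p = 3.4e-43), which ranked 8 among all genes by the signed difference. Its group means ran from 6.28 to 6.43 over the 7 PEO1 groups and from 11.45 to 11.73 over those of PEO4. The PEO1 means lay near 6.41, below which 25% of all levels lay, and RMA values carry no detection calls. IFITM2 read 8.32, 8.56, 8.36 and 8.38 in PEO1 and 11.39, 11.28, 11.43 and 11.44 in PEO4, a difference of 2.98 ± 0.05 (7.89-fold). IFITM3, which acts in late endosomes, read 9.70, 9.66, 9.56 and 9.54 against 12.57, 12.47, 12.53 and 12.53, a difference of 2.91 ± 0.05 (7.51-fold). These genes have closely similar sequences and probe sets may share signal among them. A probe set annotated to both IFITM1 and IFITM2 differed by 5.28 ± 0.06. BST2, which tethers budding virions, differed by 1.12 ± 0.06, and over all treatments its lowest PEO4 array lay 0.74 above its highest PEO1 array. The BST2 group means of PEO1, 6.31 to 6.43, were also near that 25% level.

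Among the tetratricopeptide proteins that bind foreign RNA, 1 of 3 was called. IFIT1, which recognises RNA caps lacking methylation, read 8.97, 8.86, 8.98 and 8.98 in PEO1 and 11.16, 11.00, 11.07 and 11.06 in PEO4, a difference of 2.12 ± 0.07 (4.35-fold, adjusted p = 4.73e-32). IFIT3, its partner, differed by 0.93 ± 0.08 (adjusted p = 1.87e-15) and was the gene just outside the fold minimum. IFIT5, next to IFIT1 on chromosome 10 with no protein-coding gene between them, differed by only 0.25 ± 0.06, although 3 matches to the ISRE letters lay in its promoter. Across all treatments the IFIT5 arrays of the lines overlapped, from 8.99 to 9.64 in PEO1 and from 9.40 to 9.86 in PEO4.

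ISG15 is a ubiquitin-like protein that is attached to other proteins by UBE2L6 and removed by USP18. ISG15 itself read 9.42, 9.56, 9.48 and 9.39 in PEO1 and 11.93 to 12.04 in PEO4, a difference of 2.54 ± 0.05 (5.83-fold, adjusted p = 2.64e-39). The groups did not overlap on any of the 56 arrays, with PEO1 at most 9.56 and PEO4 at least 11.87. Its conjugating enzyme UBE2L6 differed by 0.76 ± 0.06 and was not called, though all 28 PEO4 arrays lay above all 28 PEO1 arrays. The protease USP18 differed by 0.15 ± 0.05 (adjusted p = 0.0047), from 8.44 ± 0.07 in PEO1 to 8.59 ± 0.05 in PEO4 (SD, n = 4). The USP18 value was lowest under vehicle: over the 7 groups it ranged from 0.15 to 0.47, the latter at 0 h, while that of ISG15 ranged from 2.51 to 2.68.

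Of the 4 GTPases 1 was called. MX1, a dynamin-like GTPase that traps viral nucleoproteins, read 6.76, 6.82, 6.92 and 6.78 in PEO1 and 9.81, 9.46, 9.66 and 9.71 in PEO4. The groups did not overlap, and the difference was 2.84 ± 0.09 (7.16-fold, adjusted p = 2.2e-32). Its group means ran from 6.66 to 6.94 in PEO1, against 9.55 to 9.97 in PEO4. MX2, its neighbour on chromosome 21 with no protein-coding gene between them and a restriction factor for HIV, read 6.97, 6.82, 6.87 and 6.80 in PEO1 and 6.06, 6.0, 6.13 and 5.98 in PEO4. It was the only one of the 41 with all 28 PEO4 arrays below all 28 PEO1 arrays, and its difference of -0.82 ± 0.07 (adjusted p = 3.79e-14) stayed short of the fold minimum. The MX2 group means of PEO4, 5.82 to 6.17, lay under 6.41, below which 25% of all levels lay. GBP1, a guanylate-binding protein induced mainly by interferon gamma, differed by 0.47 ± 0.11 and GBP2 by 0.17 ± 0.12 (adjusted p = 0.18). The GBP1 value depended on the group compared, from -0.07 at 0 h to 0.59, as the treatment data show.

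A class of 8 genes held the oligoadenylate synthetase family, other genes that act on double-stranded RNA, and the exonuclease ISG20. Of these 5 were called higher in PEO4. OAS1, OAS2 and OAS3 make the second messenger that activates RNase L and lie side by side on chromosome 12, where OAS3 sits between the others. OAS2 differed by 1.43 ± 0.12, its PEO1 arrays reading 4.87, 5.01, 5.14 and 5.66 and its PEO4 arrays 6.69, 6.59, 6.62 and 6.47. Those PEO1 arrays lay under 6.41, below which 25% of all levels lay. OAS1 differed by 1.00 ± 0.12, from 6.71 ± 0.11 to 7.71 ± 0.16 (SD, n = 4). OAS3 differed by 0.12 ± 0.06 (adjusted p = 0.0958), and its arrays overlapped, at 9.29, 9.41, 9.25 and 9.26 against 9.56, 9.21, 9.46 and 9.46. A second probe set gave 2.37 for OAS1, one gave 1.94 for OAS2 and one gave 1.95 for OASL. OASL, a family member without synthetase activity that enhances RIG-I signalling, differed by 1.26 ± 0.11 on the probe set used. IFIH1, the cytoplasmic sensor MDA5, differed by 1.08 ± 0.09, and ISG20, an exonuclease that degrades single-stranded RNA, by 1.00 ± 0.07. OAS1 and ISG20 were the genes just inside the fold minimum. OAS1 fell to between 0.95 and 0.99 without PEO1 vehicle array C or D or PEO4 vehicle array 1, 3 or 4, and ISG20 to between 0.93 and 0.98 without PEO1 array C or D or PEO4 array 4. EIF2AK2, the kinase PKR that halts translation on double-stranded RNA, differed by 0.38 ± 0.05. ADAR, which edits double-stranded RNA, differed by 0.07 ± 0.04 (adjusted p = 0.138).

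A further 5 of 9 induced genes of mixed function were called. IFI6, a mitochondrial and endoplasmic reticulum protein that opposes apoptosis, read 7.71, 7.47, 7.55 and 7.43 in PEO1 and 9.95, 9.72, 9.98 and 9.81 in PEO4, a difference of 2.33 ± 0.07 (5.01-fold). IFI44 and IFI44L, neighbours on chromosome 1, differed by 1.89 ± 0.10 and 1.56 ± 0.12. IFI44L was low in PEO1, with group means of 4.73 to 4.94, under the 6.41 below which 25% of all levels lay. IFI27, a mitochondrial protein widely used as a marker of interferon activity in blood, read 11.15, 11.14, 11.17 and 11.13 in PEO1 and 12.83, 12.68, 12.81 and 12.80 in PEO4, a difference of 1.63 ± 0.09 (3.1-fold). XAF1, an antagonist of the apoptosis inhibitor XIAP, differed by 1.32 ± 0.11. The ubiquitin ligases TRIM22 and TRIM21, the nuclear body protein SP110 and IFI35 differed by 0.73, 0.72, 0.69 and 0.11 and were not called. TRIM22 was dim, with group means of 3.55 to 3.71 in PEO1, against 4.23 to 4.43 in PEO4. The lowest 5% of all levels lay under 4.25. Other SP110 probe sets gave 0.41 to 1.73.

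Antigen processing genes mostly differed little, with 1 of 5 called. TAP2, a subunit of the transporter that supplies peptides to class I molecules, read 8.58, 8.62, 8.64 and 8.62 in PEO1 and 9.96, 10.18, 10.04 and 10.14 in PEO4, a difference of 1.46 ± 0.06 (2.76-fold). Its other probe sets gave -0.32 (adjusted p = 0.00124) and 0.14, and the mean of its probe sets 0.45, so the TAP2 value rests on 1 probe set. TAP1, the other subunit, differed by 0.21 ± 0.04, and the immunoproteasome subunits PSMB8 and PSMB9, which lie among the TAP genes on chromosome 6, by 0.75 ± 0.06 and 0.23 ± 0.06. B2M, the light chain of class I molecules, read 13.74, 13.66, 13.70 and 13.70 in PEO1 and 13.51, 13.47, 13.51 and 13.62 in PEO4, a difference of -0.17 ± 0.05. Its group means ran from 13.64 to 13.73 in PEO1, against 13.44 to 13.54 in PEO4.

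The chemokines that attract T cells through CXCR3 were not called. CXCL10 read 6.12, 6.13, 6.15 and 6.13 in PEO1 and 6.30, 6.42, 6.38 and 6.20 in PEO4, a difference of 0.19 ± 0.08 (adjusted p = 0.0201), and its group means spanned 6.0 to 6.28 and 5.98 to 6.33. CXCL11 differed by 0.51 ± 0.11, from 3.56 ± 0.14 to 4.07 ± 0.11 (SD, n = 4). Both CXCL11 means lay under 4.25, below which 5% of all levels lay. The CXCL10 group means lay under 6.41, below which 25% lay, and RMA values carry no detection calls.

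The promoter letters and the differences between the lines were set side by side. Of the 15 called genes with a promoter entry, 13 held the ISRE letters, and of the 18 genes not called, 10 did. The median difference was 1.08 for the 23 genes with the letters and 0.39 for the 10 without. XAF1 and OAS1 were called without a match, and OAS3, IFIT5 and B2M were not called with 2 or 3 matches. The GAS letters TTCNNNGAA, which read the same on both strands, occurred in 7.66% of all promoters and in 13 of the 45 listed for these genes. By gene they occurred in 12 of the 33, against 9.38% of all genes, and in 5 of the 15 called and 7 of the 18 not called. These are counts of letters in a 300-base window, and binding was not measured.

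**Figure D3:**
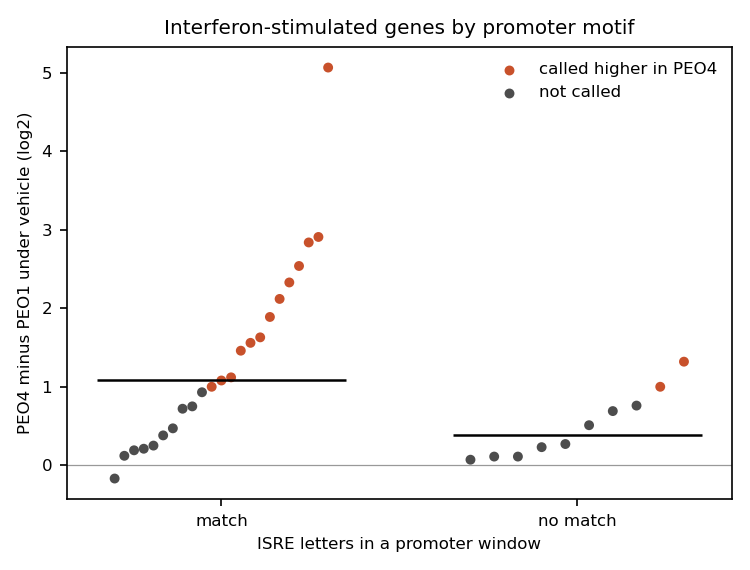
PEO4 minus PEO1 difference under vehicle (log2) of the 33 genes with a promoter entry, split by a match to the ISRE letters in any listed promoter; red points are called genes and bars are medians. The medians were 1.08 with a match and 0.39 without, and the points of both groups overlap between 0.07 and 1.32.

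RNA quality moved with the line. The difference between the 3′ and 5′ control probe sets of ACTB, which rises as RNA is degraded or incompletely copied, ran from -0.25 to 0.14 in PEO1, against 0.24 to 3.41 in PEO4. On the vehicle arrays it ran from -0.12 to -0.11 in PEO1, against 0.24 to 0.57 in PEO4, and its part in the differences between the lines was not tested. PEO4 ICI array 1 (3.41) and 0 h array 4 (2.28) stood apart, and neither is among the vehicle arrays that the line comparison sets against each other. The 12 ovarian carcinoma markers averaged 11.92 to 12.08 on PEO1 arrays and 11.79 to 12 on PEO4 arrays, with KRT7 lower in PEO4 by 1.85 and the other 11 not called. The 11 measured leukocyte markers averaged 5.81 to 5.97 in PEO1 and 5.54 to 5.70 in PEO4, and 0 were called between the lines, with PTPRC (CD45) at 3.42 and 3.84. Of 9 stromal and endothelial markers, LUM (3.42) and COL3A1 (1.26) were higher in PEO4, and the mean ran from 5.67 to 5.83 in PEO1, against 6.18 to 6.36 in PEO4. Whether these markers had a part in the differences of the interferon-stimulated genes was not tested.

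Upstream genes of the pathway and related lists were read on the rule for the lines, which called 5.84% of all genes higher and 4.61% lower. Without the fold minimum 37.0% of all genes were higher and 38.9% lower. Higher and lower without it were 5 and 5 interferon genes, 6 and 6 receptor and signalling genes, and 4 and 7 sensors. Of 14 measured interferon genes, 0 were called (limma, 10 with an unadjusted p under 0.05, as had 77.1% of all genes). Their mean ran from 4.51 to 4.66 in PEO1, against 4.57 to 4.75 in PEO4. The lowest 5% of all levels lay under 4.25, and RMA values carry no detection calls. IFNB1, the beta interferon most cell types can make, differed by 0.64 ± 0.11. Of 14 receptor and signalling genes 1 was called, IL10RB, a subunit of the receptors for interferon lambda and interleukin 10 (1.31 ± 0.07). The type I receptor chains IFNAR1 and IFNAR2 stood at 0.63 ± 0.08 and -0.82 ± 0.05, and the kinases JAK1 and TYK2 at -0.01 ± 0.03 and -0.18 ± 0.07. Of 15 nucleic acid sensors and adaptors 0 were called (11 with an unadjusted p under 0.05), with 0.98 for the DNA sensor IFI16, 0.79 for RIGI, 0.75 for the endosomal sensor TLR3 and -0.72 for the adaptor TICAM1. Of 39 other interferon-stimulated genes 10 were called higher and 1 lower, and the median difference was 0.32. This list was mixed in direction, as 21 were higher and 14 lower without the fold minimum. The 10 were led by the chemokine CCL5 (2.71 ± 0.07), and included the helicase DDX60 (1.51), the ISG15 ligase HERC5 (1.43 ± 0.06), the inflammatory protease CASP1 (1.29 ± 0.06) and the antiviral enzyme RSAD2 (1.00). TYMP, a thymidine phosphorylase, was lower (-1.41). Of 21 other antigen presentation genes 1 was called, CD74, the class II invariant chain, which was lower in PEO4 (-1.92 ± 0.07). These lists were drawn up with results of the same arrays known and carry no test of their own.

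Treatments and time moved the 18 genes called between the lines less than the lines differed. That was not so for every other gene. GBP1 differed by 0.84 between vehicle and 0 h in PEO4 and by 0.47 between the lines. IRF9 rose by 0.41 with 4OHT added to E2 in PEO1 and differed by 0.27 between the lines. Within a line, each contrast was fitted with limma on the deposited log2 values over its 28 arrays, and a gene was called when its adjusted p over all genes was under 0.05. Of 574 pairs of gene and comparison, 22 were called, 11 higher and 11 lower, in 14 genes. That is 3.83% of the pairs, near the 4.26% over all genes (2.14% higher, 2.12% lower), so the number of calls does not set these genes apart. The differences spanned -0.43 to 0.84, so 0 reached 1 on the log2 scale. Of the 41 genes 27 were called in no comparison, as were 71.4% of all genes. ISG15, MX1, IFITM1, IRF1 and B2M were among them: their differences spanned -0.14 to 0.11, -0.21 to 0.22, -0.21 to 0.19, -0.15 to 0.04 and -0.08 to 0.08.

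**Figure D4:**
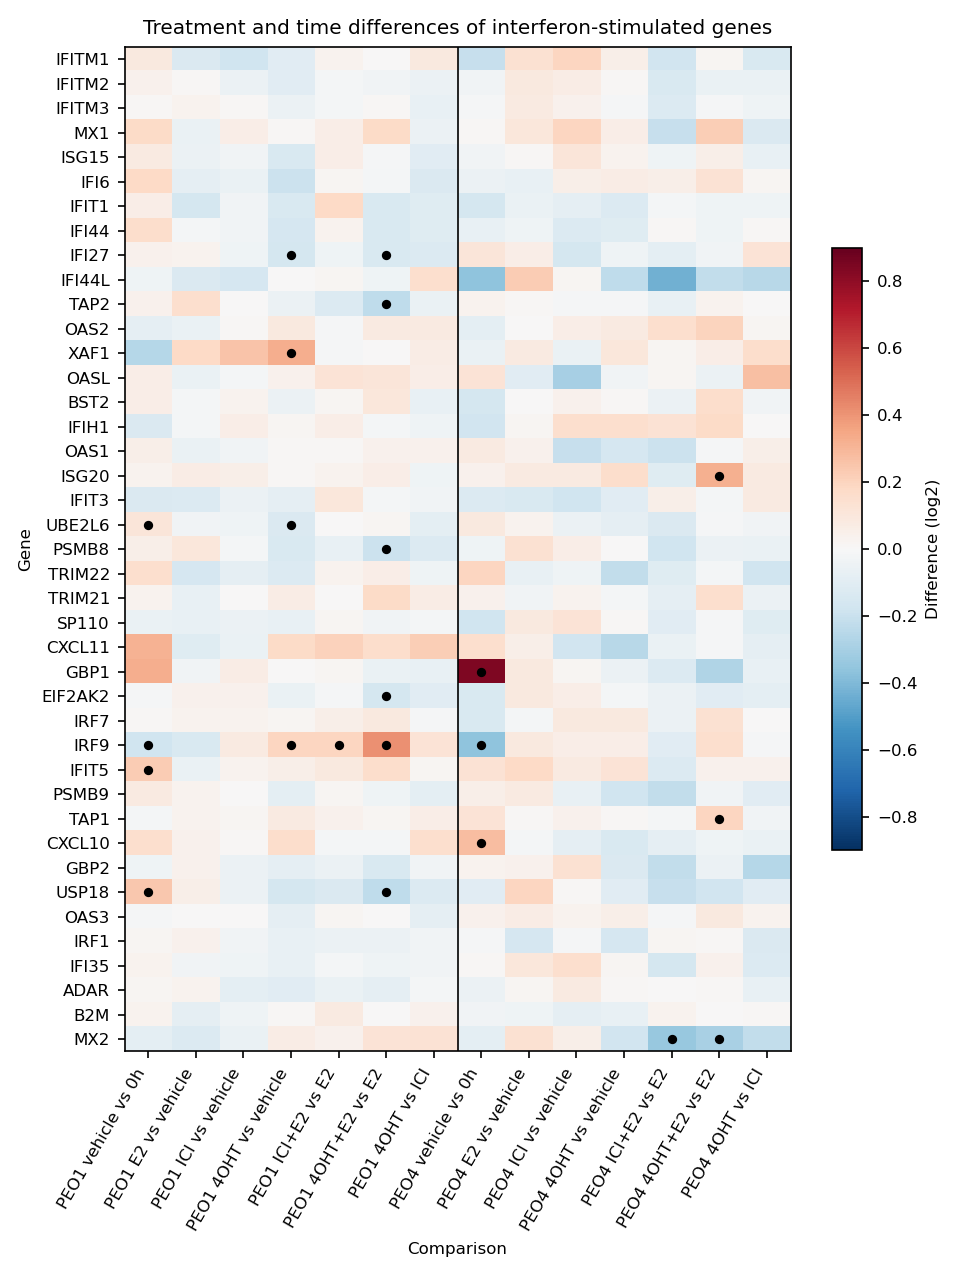
Log2 differences of the 41 genes in 7 comparisons per line, red for higher and blue for lower in the group named first, with a dot on the 22 called pairs. Rows follow the order of the difference between the lines, and GBP1 in PEO4 vehicle against 0 h (0.84) is the largest value.

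The vehicle groups at 3 h were compared with 0 h, from which they differ in time and in the added ethanol. In PEO1, 4 of the 41 genes were called against 7.43% of all genes, 3 higher (5.79% of all) and 1 lower (1.64% of all). USP18 read 7.85, 8.04, 7.93 and 8.04 at 0 h and 8.27, 8.22, 8.15 and 8.18 under vehicle. The groups did not overlap, and the rise of 0.24 ± 0.05 (adjusted p = 0.00425) held with each of the 8 arrays left out. IRF9 read 9.40, 9.27, 9.29 and 9.35 at 0 h and 9.11, 9.17, 9.17 and 9.13 under vehicle, a fall of 0.18 on the log2 scale (SE 0.05, adjusted p = 0.0177). It lost its call without vehicle array A (adjusted p = 0.0613) or 0 h array A (0.0675). IFIT5 rose by 0.23 ± 0.07 and UBE2L6 by 0.11 ± 0.03, with each call lost on leaving out 6 of the 8 arrays in turn (adjusted p up to 0.153 and 0.128). Both calls were also lost with only the 0 h and vehicle arrays in the fit. After quantile normalization 1 gene was higher and 2 were lower.

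In PEO4 the same comparison called 3 genes against 6.3% of all genes, 2 higher (3.74% of all) and 1 lower (2.57% of all). GBP1 gave the largest treatment or time difference of the set. Its 0 h arrays read 9.35, 9.23, 9.25 and 9.40 and its vehicle arrays 10.30, 9.80, 10.18 and 10.30, a rise of 0.84 ± 0.10 (1.78-fold, adjusted p = 2.74e-06). The other 5 PEO4 groups at 3 h also lay above 0 h, at means between 9.96 and 10.23, and the lowest of their arrays read 9.61. A second GBP1 probe set rose by 0.87 (adjusted p = 6.88e-06). In PEO1 GBP1 read 8.68, 8.69, 8.99 and 8.98 at 0 h and 9.18, 9.01, 9.25 and 9.22 under vehicle, a difference of 0.33 ± 0.11 that did not pass (adjusted p = 0.0748) but did with array weights, the lowest 40% of genes dropped, the mean of probe sets or only the compared groups (adjusted p 0.0154 to 0.0496). The difference between the lines' responses was 0.50 ± 0.16 and did not pass either (adjusted p = 0.0776), though it reached 0.57 and passed with array weights (0.00832) and with the mean of probe sets (0.00604). IRF9 read 10.40, 10.39, 10.13 and 10.26 at 0 h and 10.14, 9.63, 9.99 and 9.97 under vehicle in PEO4. The groups met at one array each, and the level fell by 0.36 on the log2 scale (SE 0.08, adjusted p = 0.00404), so IRF9 fell in both lines, a call lost in PEO4 with only the compared groups in the fit (adjusted p = 0.0707), as was that of CXCL10 (0.0725). Array weights gave 12 calls, 4 higher and 8 lower. CXCL10 read 6.36, 6.17, 6.11 and 6.43 at 0 h and 6.51, 6.65, 6.62 and 6.42 under vehicle, with a rise of 0.28 ± 0.07 (adjusted p = 0.0159). The highest 0 h array lay just above the lowest vehicle array, and the call was lost without 0 h array 2 or 3 or vehicle array 2 or 3 (adjusted p 0.0617 to 0.0733). With quantile normalization 2 genes were higher and 2 lower.

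The change from 0 h to vehicle differed between the lines for 1 of the 41 genes, against 2.39% of all genes, in a comparison added after the data were seen. USP18 read 8.95, 8.94, 8.85 and 9.04 at 0 h and 8.87, 8.88, 8.84 and 8.79 under vehicle in PEO4, a difference of -0.10 ± 0.06. Its response in PEO4 minus that in PEO1 was -0.34 ± 0.08 (adjusted p = 0.00534).

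**Figure D5:**
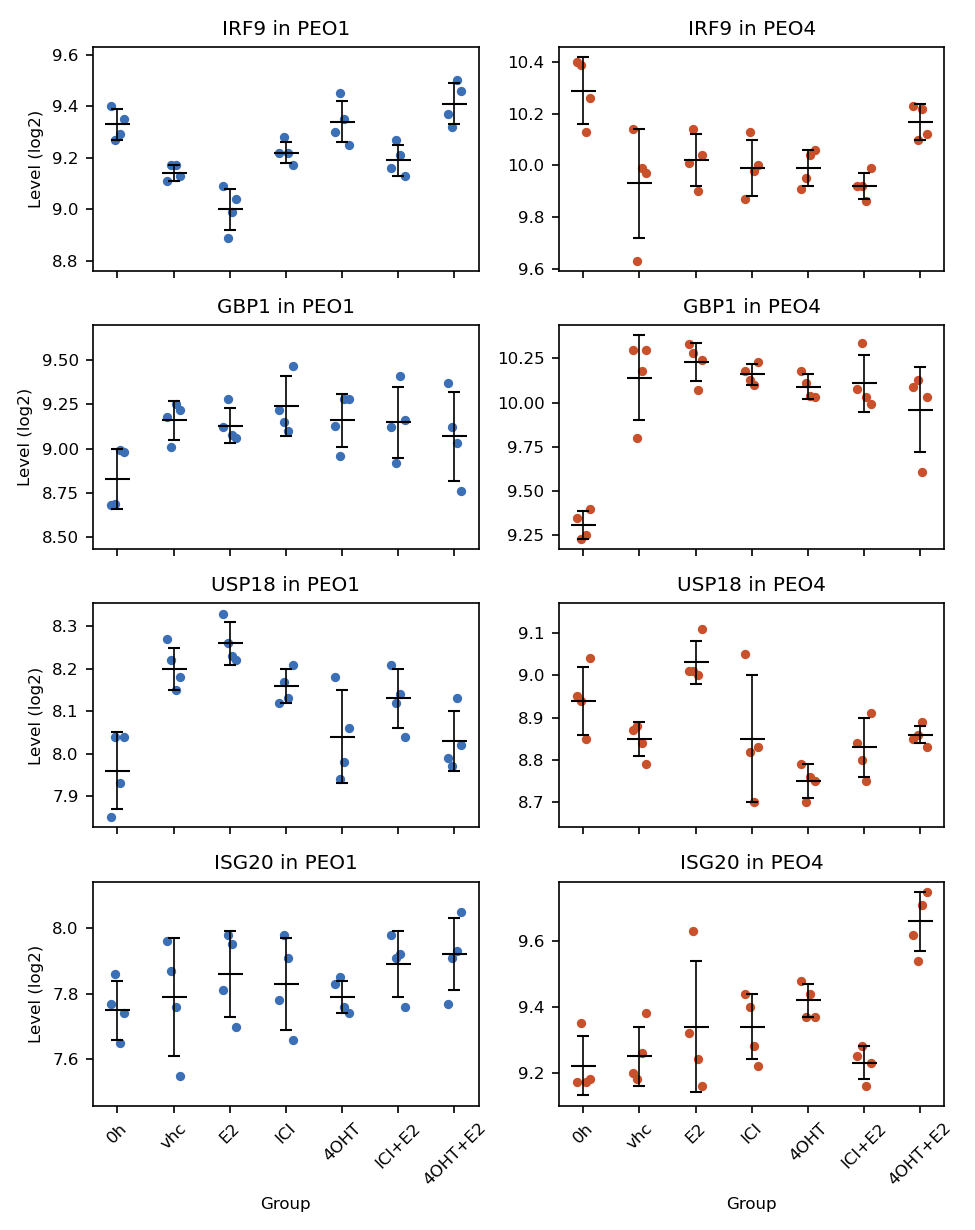
Deposited log2 levels of IRF9, GBP1, USP18 and ISG20 on each array (points) by group in PEO1 (left) and PEO4 (right), with the mean and SD over 4 arrays as bars; the 2 panels of a gene span the same log2 range at different positions. GBP1 in PEO4 lies at 9.23 to 9.40 at 0 h and at 9.61 or above in every other group.

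Estradiol called 0 of the 41 genes in either line, against 2.09% of all genes in PEO1 and 2.12% in PEO4 (limma). An unadjusted p under 0.05 was found for 3 genes in PEO1 and 4 in PEO4. The 95% intervals of all 41 differences ran from -0.37 to 0.37 in PEO1, against -0.38 to 0.50 in PEO4. IRF9 had the smallest adjusted p in PEO1 at 0.175, with 9.09, 8.89, 8.99 and 9.04 under E2, a difference of -0.14 ± 0.05. In PEO4 it was IFIT5 at 0.064, with a difference of 0.18. That 0 in PEO4 depended on the setting: IFIT5 (0.18 to 0.21) passed with the lowest 40% of genes dropped, the mean of probe sets, array weights, or without the 2 arrays of high ACTB ratio. USP18 (0.17 to 0.2) passed with quantile normalization, array weights, or without those arrays, and IRF1 (-0.17) with array weights. ICI alone likewise called 0 genes, against 0.134% of all genes in PEO1 and 0.159% in PEO4, with 2 and 4 genes at an unadjusted p under 0.05. The intervals spanned -0.41 to 0.46 in PEO1 and -0.58 to 0.43 in PEO4, where ICI array 1 is the array with the highest ACTB ratio. Array weights gave 5 calls for ICI in PEO4, all lower: OASL, PSMB9, TRIM22, IFIT3 and USP18, within -0.3 and -0.12.

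4OHT alone called 4 of the 41 genes in PEO1, against 6.75% of all genes, 2 higher (1.92% of all) and 2 lower (4.83% of all). UBE2L6 had the smallest adjusted p and a small change: 9.96, 9.98, 10.01 and 9.97 under vehicle and 9.86, 9.86, 9.85 and 9.84 with 4OHT. The groups did not overlap, and the level fell by 0.13 on the log2 scale (SE 0.03, adjusted p = 0.0124), a call kept with each of the 8 arrays left out. IRF9 read 9.30, 9.45, 9.35 and 9.25 with 4OHT, all above the vehicle arrays, a rise of 0.19 ± 0.05 (adjusted p = 0.0167). Its call was lost without vehicle array A (0.0576) or 4OHT array B (0.0806). For UBE2L6 and IRF9 the same vehicle arrays gave calls of the opposite sign against 0 h, so these comparisons are not independent. XAF1 rose by 0.33 ± 0.09, from 6.43, 6.58, 6.87 and 6.70 to 6.84, 7.15, 7.13 and 6.80. The XAF1 groups overlapped, and the call was lost without vehicle array A or B or 4OHT array B or C (adjusted p 0.0773 to 0.125). Against 0 h, XAF1 was not called under vehicle in the main fit. It passed as lower with array weights (-0.28), quantile normalization (-0.29) or without vehicle array C (-0.34). IFI27 fell by 0.16, from 10.90, 10.87, 10.98 and 10.87 to 10.78, 10.72, 10.66 and 10.83, and lost its call on leaving out 6 of the 8 arrays in turn (adjusted p up to 0.172). With quantile normalization XAF1 and IRF9 kept their calls and the 2 lower genes lost theirs, and the split over all genes moved from 230 of 808 calls higher to 312 of 589. With only the vehicle and 4OHT arrays in the fit, 0 of the 4 calls remained.

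In PEO4 4OHT called 0 of the 41 genes against 5.53% of all genes (limma, 8 with an unadjusted p under 0.05), and the intervals spanned -0.50 to 0.33. CXCL11 (-0.25) passed with the replicate label as a block, and array weights gave 5 calls, CXCL11, TRIM22, IRF1 and MX2 lower and IFIT5 higher. The direct test of the 4OHT response between the lines called 0 of the 41 genes against 1.26% of all (6 with an unadjusted p under 0.05). For IRF9 the difference of responses was -0.14 ± 0.09 and for XAF1 -0.24 ± 0.15. The same tests for E2 and ICI called 0 genes against 0.493% and 0.1% of all, with 6 and 4 genes at an unadjusted p under 0.05. Array weights gave 3 for ICI: ADAR (0.13), OASL (-0.28) and XAF1 (-0.37).

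With E2 present, the antagonists were compared with E2 alone. In PEO1 4OHT with E2 called 6 of the 41 genes against 12.7% of all genes, 1 higher (4.26% of all) and 5 lower (8.48% of all). IRF9 read 9.09, 8.89, 8.99 and 9.04 under E2 and 9.37, 9.32, 9.50 and 9.46 with 4OHT added. The groups were well apart, and the rise of 0.41 ± 0.05 (1.33-fold, adjusted p = 1.15e-06) was the largest treatment difference of the set in PEO1 and held with each of the 8 arrays left out. USP18 moved the other way, from 8.33, 8.26, 8.23 and 8.22 to 7.99, 7.97, 8.13 and 8.02. It fell by 0.23 (SE 0.05, adjusted p = 0.00403), without overlap and with each array left out. TAP2 fell by 0.23 (SE 0.06, adjusted p = 0.00817), from 8.41, 8.52, 8.55 and 8.60 to 8.17, 8.28, 8.45 and 8.27, with overlap, and its other probe sets gave -0.24 (adjusted p = 0.0906) and 0.12 (0.52). PSMB8 fell by 0.19, EIF2AK2 by 0.16 and IFI27 by 0.14, each with an adjusted p between 0.0409 and 0.0474, and each call was lost on leaving out 5 or 6 of the 8 arrays in turn (adjusted p up to 0.19). With only the E2 and 4OHT+E2 arrays in the fit 2 calls, IRF9 and USP18, remained. With quantile normalization 2 genes were higher and 2 lower.

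ICI with E2 called 1 gene in PEO1, a higher one, against 2.5% of all genes (0.97% higher, 1.53% lower): IRF9 read 9.16, 9.27, 9.21 and 9.13, above every E2 array, a rise of 0.19 ± 0.05 (adjusted p = 0.0296). The call was lost without E2 array B or C or ICI+E2 array B or C (adjusted p 0.0782 to 0.153) and with only the compared groups in the fit (0.141). IRF9 was therefore called higher with 4OHT, with 4OHT and E2, and with ICI and E2 in PEO1, comparisons that share the vehicle or the E2 arrays and are not independent.

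In PEO4 4OHT with E2 called 3 genes against 5.73% of all genes, 2 higher (3.58% of all) and 1 lower (2.16% of all). ISG20 read 9.32, 9.63, 9.24 and 9.16 under E2 and 9.62, 9.54, 9.71 and 9.75 with 4OHT added, a rise of 0.32 ± 0.07 (adjusted p = 0.00736). The groups overlapped through E2 array 2. The call held with each of the 8 arrays left out but was lost with only the E2 and 4OHT+E2 arrays in the fit (adjusted p = 0.0897), where 0 of the 3 calls remained. A second ISG20 probe set rose by 0.26 (adjusted p = 0.00353). In PEO1 the same comparison gave 0.06 ± 0.08 for ISG20. TAP1 rose by 0.19 ± 0.05, from 9.03, 9.21, 9.05 and 9.10 to 9.26, 9.28, 9.24 and 9.34, without overlap, and lost its call on leaving out 6 of the 8 arrays in turn (adjusted p up to 0.131). MX2 fell by 0.29 (SE 0.08, adjusted p = 0.0187), from 6.33, 6.55, 6.45 and 6.29 to 6.07, 6.01, 6.11 and 6.30, a call lost without E2 array 2 or 3 or 4OHT+E2 array 1 or 2 (adjusted p 0.0587 to 0.0849). MX2 was also the 1 gene called with ICI and E2, against 2.08% of all genes (0.61% higher, 1.47% lower). It fell by 0.34 (SE 0.08, adjusted p = 0.0098), to 5.93, 6.06, 6.26 and 6.01, all under the E2 arrays, and lost its call without E2 array 2 (0.0696) or ICI+E2 array 1 (0.0623). USP18 (-0.21 to -0.17) also passed in ICI with E2 under 6 alternatives, with adjusted p from 0.00271 to 0.0453. Both MX2 comparisons use the same E2 arrays, and MX2 levels were low in PEO4, as given above. IFI44L gave the lowest value of any treatment comparison in ICI with E2, -0.43 ± 0.13, which did not pass (adjusted p = 0.103). In 4OHT with E2, 2 genes were higher and 2 lower with quantile normalization. USP18, not called there in the main fit, passed as lower with quantile normalization (-0.19) and with array weights (-0.18). It also passed with the lowest 40% of genes dropped (-0.17) and without the 2 arrays of high ACTB ratio (-0.17).

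4OHT and ICI, a triphenylethylene and a steroid with a long side chain, were compared directly at 1 µM and 3 h, 1 pair of compounds in each line. The comparison called 0 of the 41 genes in PEO1, against 3.74% of all genes, and 0 in PEO4, against 2.33% (limma, 4 and 3 genes with an unadjusted p under 0.05). The differences spanned -0.13 for IFI6 to 0.22 for CXCL11 in PEO1 and -0.26 for GBP2 to 0.27 for OASL in PEO4. Their 95% intervals ran from -0.30 to 0.48 in PEO1, against -0.55 to 0.55 in PEO4, so differences of about that size cannot be set aside for single genes. With array weights OASL (0.24) passed in PEO4. In PEO1 4OHT minus ICI had its smallest adjusted p for UBE2L6 (0.0961), at -0.09.

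The other interferon-related lists followed the same scale under treatment. Over the 14 comparisons the 39 other interferon-stimulated genes were called 11 times higher and 17 times lower in 546 pairs, within -0.57 and 0.44, which is 5.13% of pairs beside the 4.26% over all genes. Calls were made in 0.51% of 196 pairs for interferon genes (0 higher, 1 lower), 4.08% of 196 for receptor and signalling genes (6 and 2), 1.9% of 210 for sensors (3 and 1) and 0.68% of 294 for antigen presentation genes (0 and 2). In PEO1 4OHT raised GCH1, the first enzyme of tetrahydrobiopterin synthesis, by 0.44 ± 0.05 alone and by 0.42 ± 0.05 with E2, and IFNGR2, the signalling chain of the interferon gamma receptor, by 0.20 ± 0.05 and 0.32 ± 0.05. TNFSF10, the death ligand TRAIL, fell by 0.55 with 4OHT and E2 in PEO1 (adjusted p = 0.000372) and was lower under vehicle than at 0 h in both lines, by -0.57 in PEO1 and -0.41 in PEO4.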

How the data were processed

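RNA of 56 samples was measured on Affymetrix arrays, and the authors deposited log2 values per probe set made with RMA, per the submitters' processing notes; the version is not given in the sources used here. Array medians differ by line, so the lines may have been normalized apart. Of 22277 probe sets, 62 were controls, 19064 carried 1 symbol in the platform annotation, 1043 several and 2108 none. Gene IDs matched RefSeq for 19052, with 0 symbols updated. Genes were read from the probe set with the highest mean, which gave 11963 genes, 4310 of them with several probe sets.

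The list of genes, the other lists and the comparisons were chosen with earlier results of these data known, and no list is tested as a set. The genes named are all of the listed interferon-stimulated genes, and up to 4 per comparison by adjusted p in the other lists, with a few named for their role or chosen after their values were seen. Line levels were compared with limma 3.58.1 in R 4.3.3 after joint quantile normalization, over all 56 arrays and 14 groups. Treatments were compared in 1 fit per line on deposited values. Moderated tests were two-sided with Benjamini-Hochberg adjustment over all genes, and errors after ± are standard errors unless marked SD. Tested on simulated data for PEO1 4OHT against vehicle over 11963 genes, the fit recovered 94% of 100 genes changed by 0.5 log2 and 100% of those changed by 1 log2, with 10 false calls. For the lines it recovered 100% at 1.5 and at 3 log2 with 0 false calls. Changes under 0.5 log2, the size of most treatment calls, were not simulated, nor were line differences near the minimum of 1. The simulated noise was drawn independently for each gene. The alternatives were quantile normalization, median-centring, deposited values, the mean of probe sets, only the compared groups, trend and robust moderation, array weights, a replicate block, dropping the lowest 40% of genes, and leaving out arrays. Figures were drawn with matplotlib 3.10.9 in Python 3.11.15.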

Additional observations from a re-analysis of the deposited data

Results flagged for a closer look

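Single arrays stood apart from the other 3 of their group in 5 of 112 combinations of gene and group examined by Dixon's test on deposited log2 values, which chance gives in about 1 of 20. ISG15 in PEO1 at 0 h read 9.04 on array C against 9.15 to 9.17 on the others. MX1 in PEO4 with ICI read 10.48 on array 1 against 9.99 to 10.03, and this is the array whose ACTB 3′ minus 5′ value was 3.41. MX1 in PEO4 with ICI and E2 read 9.71 on array 1 against 9.85 to 9.87. IFI27 in PEO4 under vehicle read 12.84 on array 2 against 12.99 to 13.01, and IFITM1 in PEO4 with 4OHT read 11.7 on array 1 against 11.81 to 11.82.

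The response in PEO4 minus that in PEO1 passed limma's adjusted threshold for a few genes. For 4OHT against vehicle this was PTPN2, a phosphatase that dephosphorylates JAK and STAT proteins (0.27, adjusted p = 0.0387). For vehicle against 0 h, in the comparison added after the data were seen, it was USP18 (-0.34, adjusted p = 0.00534), IFNGR2 (0.32, 0.00868), COL3A1 (0.4, 0.0141), the antiviral protein ZC3HAV1 (-0.28, 0.0229) and PTPN2 (-0.25, 0.0463). The changes of PTPN2 have opposite signs and share the vehicle arrays.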

How the results depend on the processing

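Of 135 counts recomputed under another setting, 112 stayed within 1.5 times the value reported. With 1 array left out, 144 of 168 did. Both totals include comparisons with 0 calls as reported, where a 0 that stayed 0 counted as unchanged. They therefore say little about the comparisons that had calls, whose changes and ranges follow. Causes of the changes were not tested beyond what follows. Higher genes between the lines numbered 16 to 25 of 41, and 14 of the 32 still tested with the lowest 40% of genes dropped. B2M moved from -0.17 to 0.0 on deposited values (limma, adjusted p = 0.983). With only the compared groups fitted, which leaves fewer arrays for the spread, calls fell to 0 for PEO1 4OHT, 0 for PEO1 ICI+E2, 2 for PEO1 4OHT+E2, 1 for PEO4 vehicle against 0 h and 0 for PEO4 4OHT+E2. With quantile normalization they were 2 for PEO1 4OHT, 1 for PEO4 E2 and 2 for PEO4 ICI+E2. Array weights gave, in PEO4, 12 for vehicle against 0 h (4 higher, 8 lower), 3 for E2, 5 for ICI, 5 for 4OHT, 2 for ICI+E2, 5 for 4OHT+E2 and 1 for 4OHT against ICI, and 3 for the ICI response between the lines and 3 for vehicle against 0 h between the lines. The mean of probe sets gave 1 for PEO4 E2, 2 for PEO4 ICI+E2 and 2 for vehicle against 0 h between the lines. Dropping the lowest 40% of genes gave 1 for PEO4 E2. Without the 2 PEO4 arrays of low RNA quality, an alternative chosen after seeing the data, there were 2 for E2 and 2 for ICI+E2.

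With the replicate label as a block, calls were 1 for PEO4 4OHT and 2 for PEO4 ICI+E2, and elsewhere within 1.5 times. Arrays of the same label did not deviate together (median correlation 0.036 in PEO1, -0.402 to 0.341, and 0.057 in PEO4, -0.451 to 0.423), so labels were not read as pairs.

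Leaving out 1 array in turn gave 16 to 18 for the lines, and in PEO1 2 to 3 for vehicle against 0 h, 1 to 6 for 4OHT, 0 to 1 for ICI+E2 and 3 to 8 for 4OHT+E2. In PEO4 it gave 2 to 4 for vehicle against 0 h, 0 to 1 for ICI (1 without ICI array 4), 0 to 2 for ICI+E2 and 1 to 4 for 4OHT+E2. The E2 and 4OHT against ICI comparisons of both lines, PEO1 ICI, PEO4 4OHT and the planned response differences stayed at 0. For vehicle against 0 h between the lines it gave 1 to 2 (2 without PEO4 vehicle array 2). Arrays with no detection calls do not show which low values are background.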
